A study of Mus musculus with 8 samples.

Results

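The AP-1 family genes Fos, Fosb, Fosl1, Fosl2, Jun, Junb, Jund, Batf, Batf3 and Atf3 were examined for accessible chromatin in mouse macrophages. Peaks were taken when their summit lay in the gene's span in the mm10 genome build or within 50 kb of it, and overlapping peaks of the libraries were merged into regions. This gave 171 regions at the 10 genes, of 76751 regions in the genome. The assay was ATAC-seq, in which the Tn5 transposase inserts sequencing adapters into open DNA. The cells were bone-marrow-derived macrophages, grown from mouse marrow for 7 days, and were wild type (WT) or Lamin-A KO, lacking the nuclear lamina protein encoded by Lmna. Each genotype was left untreated or activated for 6 h with LPS, the bacterial lipopolysaccharide that the receptor TLR4 senses. The 8 libraries formed 4 groups of 2: untreated WT, LPS-treated WT, untreated KO and LPS-treated KO. All groups shared the culture, and all cells were frozen in medium with 5% DMSO and thawed before tagmentation. The LPS dose, the part of Lmna that was deleted, and the age, sex and strain of the mice are not given in the sources used here. Nothing in the labels says that the 2 libraries of a group came from separate animals or cultures. The p-values below therefore rest on the spread between these libraries, which may be technical. That spread was estimated with information from all tested regions, so a p-value does not measure the spread of its own region alone.

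AP-1 is a group of transcription factors made of pairs of basic leucine zipper proteins, one usually from the Jun family and the other from the Fos, Batf or Atf families. Receptors such as TLR4 switch on several of these genes within minutes through the MAP kinases, without new protein synthesis, and the pairs then bind short DNA elements at the enhancers of inflammatory genes. In macrophages AP-1 works beside the lineage factor PU.1, and it acts on the regulatory DNA of some of its own genes as well as on that of its targets.

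Promoter sequences show where the factors that drive these genes could bind in the DNA that was measured as open. RefSeq windows of build GRCm38.p6, running from 250 bases before to 50 bases after the start site, were found for 9 of the 10 genes, and Fosl1 was not matched. Of the 9 windows, 7 overlapped an accessible region, and the windows of Fosl2 and Jund overlapped none. The windows of Fos (chr12:85473640-85473939, plus strand), Jun (chr4:95052173-95052472, minus strand), Batf (chr12:85686470-85686769, plus strand) and Atf3 (chr1:191183284-191183583, minus strand) are shown because they hold elements of the kind that ATF, CREB and AP-1 proteins bind. They are written 5′ to 3′ on the gene's strand, and capitals mark the matches.
Fos: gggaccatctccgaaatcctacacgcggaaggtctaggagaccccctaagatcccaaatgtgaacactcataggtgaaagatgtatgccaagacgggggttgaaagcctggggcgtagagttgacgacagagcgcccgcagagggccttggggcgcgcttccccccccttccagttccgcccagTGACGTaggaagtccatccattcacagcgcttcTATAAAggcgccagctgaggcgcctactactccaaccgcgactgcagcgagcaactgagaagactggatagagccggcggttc
Jun: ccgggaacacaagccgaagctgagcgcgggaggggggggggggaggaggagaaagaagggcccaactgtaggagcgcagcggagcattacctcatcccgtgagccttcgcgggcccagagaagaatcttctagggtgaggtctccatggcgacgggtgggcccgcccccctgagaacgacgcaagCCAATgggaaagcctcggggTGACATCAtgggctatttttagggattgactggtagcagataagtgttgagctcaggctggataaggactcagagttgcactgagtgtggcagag
Batf: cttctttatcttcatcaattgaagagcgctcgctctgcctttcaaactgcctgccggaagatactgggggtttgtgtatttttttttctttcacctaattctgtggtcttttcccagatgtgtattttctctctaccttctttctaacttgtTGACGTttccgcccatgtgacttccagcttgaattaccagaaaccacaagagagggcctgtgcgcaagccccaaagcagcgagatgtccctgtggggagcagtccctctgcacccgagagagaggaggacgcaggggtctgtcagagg
Atf3: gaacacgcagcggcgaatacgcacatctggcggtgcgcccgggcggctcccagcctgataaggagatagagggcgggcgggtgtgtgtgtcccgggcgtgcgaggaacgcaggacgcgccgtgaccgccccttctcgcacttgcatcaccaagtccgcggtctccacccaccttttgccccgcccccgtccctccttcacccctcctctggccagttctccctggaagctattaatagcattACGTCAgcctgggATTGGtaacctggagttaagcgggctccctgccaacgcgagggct
The letters TGACGT, part of the cyclic AMP response element, were found in the windows of Fos, Batf and Atf3, and in 7.51% of the 32851 promoters of the table. The letters TGACATCA, the form of the element known from the Jun promoter, were found at Jun and in 3.62% of promoters. The other capitals mark TATAAA, present in 13.6% of promoters and here at Fos and Junb, and CCAAT, present in 37.4% and here at Jun, Junb and Atf3. The AP-1 element itself, searched as TGANTCA, was in 0 of the 9 windows and in 7.81% of all promoters. Both strands were searched, none of these motifs overlap each other, and a match of letters is a description, not a bound site.

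Of the 171 regions at AP-1 genes, 98 (57.3%) were called in all 8 libraries, against 40.3% of all regions, and 24 were called in no more than 2. Within a group, the pair of libraries shared 86.4% to 91.4% of the regions at AP-1 genes, and 78.4% to 82.3% of all regions. The number of these regions was 134 ± 1.41 (SD, n = 2) in untreated WT, 141 ± 4.24 (SD, n = 2) in LPS-treated WT, 123 ± 1.41 (SD, n = 2) in untreated KO and 124 ± 5.66 (SD, n = 2) in LPS-treated KO. The lists themselves differed in length, with 53942 to 59750 peaks in WT and 44504 to 49661 in KO. The regions lay mostly away from the genes: 21 were within 1 kb of a gene span and 120 were more than 10 kb from it. An AP-1 gene was the nearest protein-coding gene for 86 of the regions, and 6 regions fell within reach of both Batf3 and Atf3, which are neighbours on chromosome 1, and were given to the nearer gene. The genes did not have equal neighbourhoods, as Fosb had 26 regions in its window and Jun had 13.

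**Figure D1:**
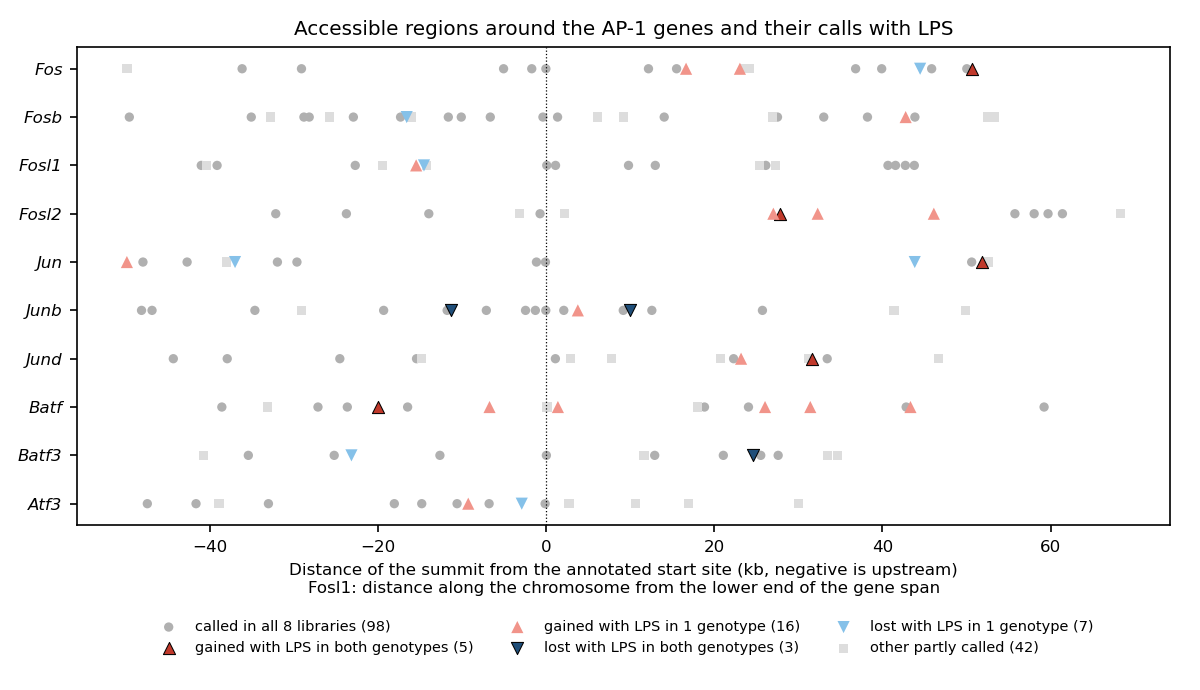
Position of the 171 regions along each gene, as the distance of the summit from the annotated start site in kb. For Fosl1 the distance runs along the chromosome from the lower end of the gene span. Grey circles are the 98 regions called in all 8 libraries, triangles pointing up are gained with LPS, triangles pointing down are lost with LPS, and pale squares are the remaining partly called regions. Most gained and lost regions lie away from the start sites.

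The cells and the genotype were checked at other loci. A start site open in all 8 libraries was found for 4 of 4 macrophage markers with an annotated start site, and for 0 of 2 B cell, 0 of 2 T and NK cell, 0 of 3 neutrophil, 0 of 3 dendritic cell and 1 of 3 erythroid markers. The neutrophil marker Ly6g had a start site region in 6 libraries, all but those of untreated KO, and the dendritic cell marker Flt3 in 3, which were both of untreated WT and 1 of untreated KO. Their part in the results was not tested. At Lmna, 1 region was called in all 4 WT libraries and in no KO library, and another in all 4 KO libraries and in no WT library. The AP-1 genes do not lie on chromosome 3, which carries Lmna. In such bulk samples, fewer cells with an open region and less opening in each cell cannot be told apart.

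LPS brought new regions at the AP-1 genes in both genotypes. Gained regions were those listed by both treated libraries and by neither untreated library, and lost regions were the reverse. In WT cells 17 of the 171 regions (9.94%) were gained and 8 (4.68%) were lost, beside 10.1% gained and 6.02% lost over all regions. In KO cells 9 (5.26%) were gained and 5 (2.92%) were lost, beside 8.03% and 5.56%. These shares at the AP-1 genes were near or below those of the genome. Such calls carry no p-value, since an exact two-sided permutation test with 2 libraries on each side has 0.333 as its smallest p. Regions present in all 4 LPS libraries and absent from all 4 untreated ones numbered 5 (2.92%, against 4.85% of all regions), and the reverse held for 3 (1.75%, against 1.79%).

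A second measure was needed for the regions that every library listed. The deposited fold enrichment and p-value of a peak together fix the number of reads stacked at its summit, here called the summit pileup, and 100% of the values worked out this way were whole numbers within 0.01. The log2 pileup of the 30960 regions called in all 8 libraries, centred on each library's median, was tested with limma and Benjamini-Hochberg adjustment over all of them. Among the 98 AP-1 regions, 21 were higher and 23 lower with LPS in WT, which is 21.4% and 23.5% beside 16.9% and 16.6% of all shared regions. In KO 19 were higher and 23 lower (19.4% and 23.5%, beside 17.2% and 18.3%). Without centring, the split became 9 higher and 24 lower in WT and 9 higher and 24 lower in KO, beside 9.62% and 19.3% of all shared regions in WT and 9.83% and 21.3% in KO, and the median change of all shared regions then stood at -0.174 and -0.187 on the log2 scale, against -0.022 and -0.033 with centring. In both genotypes 13 regions were higher (13.3%, beside 12.7%) and 20 were lower (20.4%, beside 11.7%), and 0 changed in opposite directions. Of these, 7 of the higher (7.14%, beside 6.33%) and 5 of the lower (5.1%, beside 5.31%) kept an adjusted p below 0.05 without centring, with a replicate block and with each library left out.

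**Figure D2:**
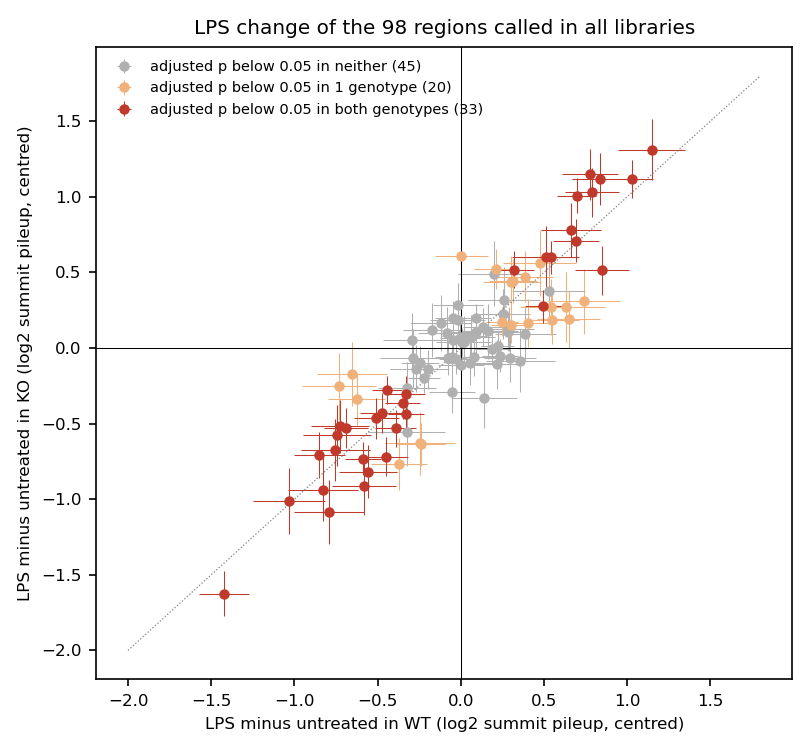
Change of log2 summit pileup with LPS in WT (x axis) and KO (y axis) for the 98 regions called in all 8 libraries, centred on each library's median. Points are regions, bars are the standard error from limma and the dotted line marks equal change. The 33 red regions passed an adjusted p of 0.05 in both genotypes and all lie in the lower left or upper right.

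At Fos, the immediate early gene whose product pairs with Jun proteins, the pileup fell with LPS close to the promoter and rose far downstream. The region at -1.69 kb from the start site (chr12:85471996-85472533) had pileups of 322 and 260 reads in untreated WT and 96 and 97 with LPS. In KO it had 234 and 280 reads untreated and 78 and 70 with LPS. The treated libraries were all below the untreated ones, with a log2 change of -1.42 (SE 0.15, adjusted p = 5.12e-11, limma) in WT and -1.63 (SE 0.15, adjusted p = 7.7e-13) in KO. The region over the Fos start site (chr12:85473392-85474193), which holds the whole promoter window printed above, had 305 and 309 reads in untreated WT and 204 and 143 with LPS. Its pileups in KO were 200 and 251 untreated and 149 and 130 with LPS. The groups again did not overlap within a genotype, and the log2 change was -0.69 (SE 0.13, adjusted p = 3.44e-05, limma) in WT and -0.53 (SE 0.13, adjusted p = 0.0012) in KO. The deposited enrichment there went from 6.5 and 6.1 to 6.06 and 5.02 in WT. In KO it went from 5.68 and 6.3 to 5.56 and 5.59. Its rank among the shared regions overlapped between treatments in each genotype. Local background fell too, from 46.1 and 49.84 to 32.84 and 27.66 reads in WT, and its part was not tested. At -1.69 kb the rank of the enrichment was lower with LPS in both genotypes. The regions at -5.04 kb and -36.13 kb also passed the test in both genotypes. Thus 4 of the 11 shared Fos regions were lower in both, beside 11.7% of all shared regions. For the regions at -5.04 and -36.13 kb, 3 of the WT libraries each ended the WT call when left out. Leaving out KO untreated library 2 ended the KO call at -5.04 kb. At -5.04 kb the deposited enrichment went the other way from the pileup in WT, from 10.02 and 9.35 to 11.26 and 10.84. In KO it overlapped between treatments, at 10.16 and 11.23 untreated and 11.99 and 11.13 with LPS. The rank of this enrichment among the shared regions was higher with LPS in both genotypes.

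On the other side of Fos, the region at +39.92 kb (chr12:85513624-85514174) rose. It had 58 and 66 reads in untreated WT, 138 and 112 with LPS, 40 and 49 in untreated KO, and 133 and 75 in LPS-treated KO. Every treated library was above every untreated one, with a log2 change of 1.15 (SE 0.20, adjusted p = 8.34e-06, limma) in WT and 1.31 (SE 0.20, adjusted p = 5.92e-07) in KO. The region at +50.7 kb was gained in both genotypes, with 98 and 78 reads in LPS-treated WT and 98 and 58 in LPS-treated KO. A region at +16.66 kb was gained in WT, with 132 and 90 reads after LPS, and was listed in all 4 KO libraries, with 72 and 107 reads before LPS and 79 and 73 after. The region at +23.06 kb, with 50 and 49 reads, was gained in WT, and the one at +44.49 kb, with 70 and 78 reads, was lost in WT.

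Fosb, another Fos gene that responds quickly to stimuli, changed on both flanks and not detectably at its promoter. The region over the start site (chr7:19309989-19310582) had 201 and 217 reads in untreated WT, 182 and 180 with LPS, 182 and 237 in untreated KO and 185 and 125 with LPS, and the difference did not pass the test in WT (adjusted p = 0.81, limma) or KO (adjusted p = 0.0941). The upstream region at -6.62 kb (chr7:19316207-19316878) had 449 and 463 reads in untreated WT and 270 and 275 with LPS. It had 339 and 455 reads in untreated KO and 245 and 183 with LPS. It therefore fell in both genotypes, with a log2 change of -0.59 in WT (SE 0.11, adjusted p = 1.73e-05, limma) and -0.73 in KO (SE 0.11, adjusted p = 2.23e-07). The regions at -10.07 kb and -17.29 kb passed in both genotypes as well. Their calls were lost when LPS-treated WT library 1, untreated WT library 2 (at -10.07 kb), untreated KO library 2 (at -10.07 kb), or untreated KO library 1 or LPS-treated KO library 2 (at -17.29 kb) was left out, with adjusted p-values up to 0.154 and 0.0568 at -10.07 kb and up to 0.062 and 0.224 at -17.29 kb (limma, WT and KO). By rank of the deposited enrichment, the region at -10.07 kb was higher with LPS in WT and did not shift in KO. Its enrichment in WT was 8.6 and 9.04 untreated and 8.58 and 8.62 with LPS. The region at -17.29 kb was lower by this rank in both genotypes. At +33.03 kb, nearest to Ppm1n, pileups rose from 100 and 117 to 205 and 148 in WT and from 63 and 78 to 159 and 119 in KO (log2 change 0.83 and 1.12, adjusted p = 7.75e-05 and 3.65e-07, limma). A region at +42.77 kb, nearest to Vasp, was gained in WT with 151 and 113 reads, and 1 of the 2 untreated KO libraries already listed it. The region at -16.56 kb, with 87 and 87 reads, was lost in WT.

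Fosl2 encodes Fra-2, a Fos protein without a strong activation domain, and it had a run of regions downstream of the gene that opened with LPS. The region at +27.04 kb (chr5:32163303-32163790) was listed in 1 untreated library, a WT library with 30 reads. With LPS it held 251 and 200 reads in WT and 211 and 167 in KO. Its deposited enrichment over local background was 10.1 and 8.95 in LPS-treated WT and 10.3 and 9.77 in LPS-treated KO. The neighbour at +27.8 kb was gained in both genotypes, with 126 and 100 reads in WT and 115 and 91 in KO. The region at +32.31 kb (chr5:32168506-32169014) had 147 and 140 reads in LPS-treated WT, 150 and 158 in LPS-treated KO and 28 in 1 untreated KO library. Where an untreated library listed one of these regions, it did so with 28 or 30 reads, close to the lowest pileup of any list, which was 23 or 24 reads.

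Further from Fosl2, the region at +59.7 kb (chr5:32195904-32196483), nearest to Plb1, was open in every library and rose. It had 169 and 175 reads in untreated WT, 335 and 300 with LPS, 160 and 157 in untreated KO and 361 and 266 with LPS. The groups did not overlap, and the change was 2.04-fold in WT (adjusted p = 1.43e-09, limma) and 2.17-fold in KO (adjusted p = 1.41e-10). The region at +58.05 kb rose by 0.79 (adjusted p = 0.000106, limma) in WT and 1.03 (adjusted p = 9.17e-07) in KO on the log2 scale. Its deposited enrichment overlapped between treatments in WT, at 4.49 and 3.49 untreated and 3.53 and 4.51 with LPS. In KO the enrichment rose from 3.17 and 3.66 to 3.69 and 4.32. Local background there rose from 27.48 and 31.08 to 48.3 and 43.14 reads in WT, and its part was not tested. Upstream, the region at -23.73 kb fell from 207 and 247 reads to 133 and 95 in WT and from 158 and 186 to 99 and 89 in KO (log2 change -0.85 and -0.71, adjusted p = 1.33e-05 and 0.00021, limma). The region at -0.7 kb, the nearest called one to the start site, had 329 and 390 reads in untreated WT and 400 and 338 with LPS, with no difference that passed the test (adjusted p = 0.155, limma). The region at +46.12 kb was gained in WT with 46 and 44 reads.

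Fosl1 encodes Fra-1, the other Fos protein of this kind, and had 12 shared regions. Of the 12 shared regions, 2 were higher with LPS in WT and 1 in KO, 0 were lower in either, and 0 passed in both genotypes. Among all shared regions 16.9% were higher and 16.6% lower in WT, and 17.2% and 18.3% in KO. Both WT calls were lost with any 1 of the 4 WT libraries left out (adjusted p up to 0.129 and 0.248, limma), and the KO call without untreated library 2 or LPS-treated library 1 (adjusted p up to 0.38). The strand of Fosl1 was not used, so its distances run along the chromosome from the lower end of the span. The region over that end (chr19:5447478-5448079) had 72 and 81 reads in untreated WT, 74 and 84 with LPS, 43 and 46 in untreated KO and 54 and 59 with LPS. The region 15.44 kb below the span was gained in KO, from no call to 118 and 111 reads, while in WT it was listed before LPS with 42 and 58 reads and after with 119 and 99. It was thus listed at about the same level after LPS in both genotypes. The region 14.51 kb below the span was lost in KO, where it had 45 and 47 reads before LPS.

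**Figure D3:**
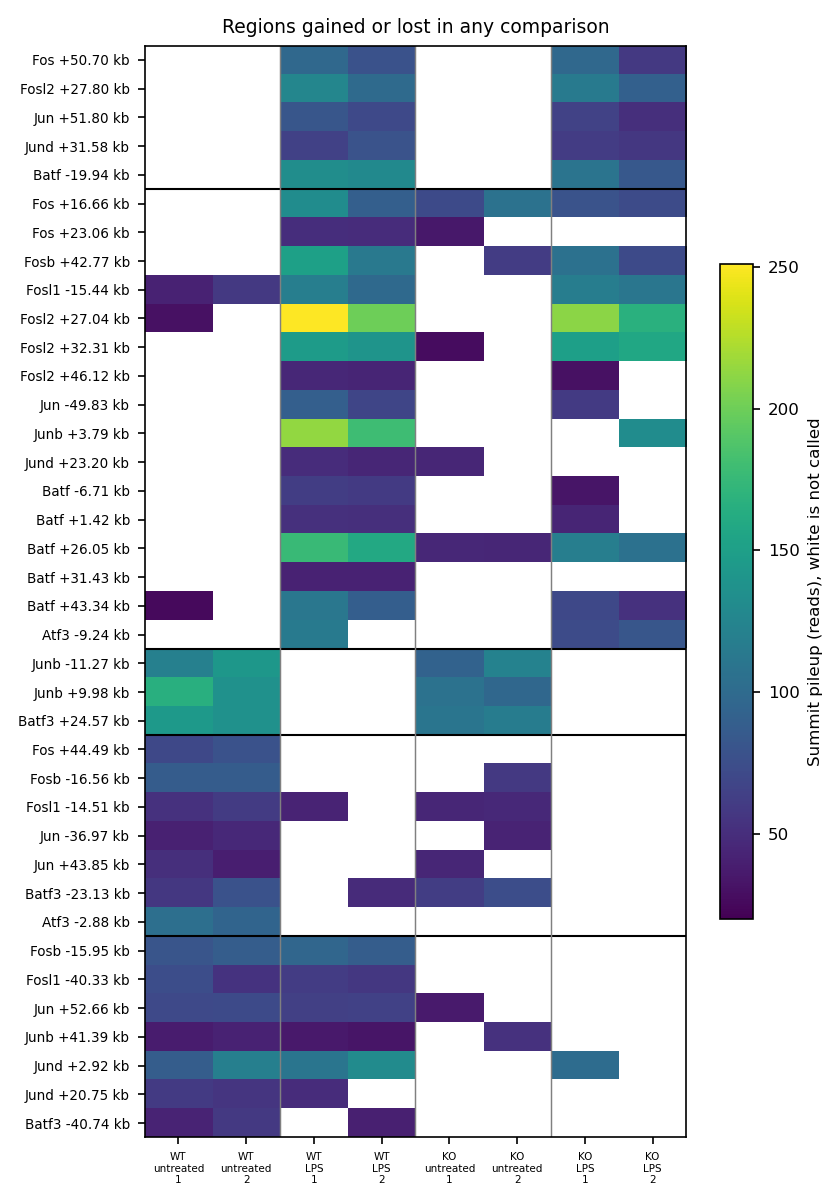
Summit pileup, in reads, of the 38 regions gained or lost in any comparison, with 1 column per library. White means that the library did not list the region, and the blocks from top to bottom hold regions gained with LPS in both genotypes, gained in 1, lost in both, lost in 1, and those that differ between genotypes alone. The Fosl2 region at +27.04 kb reaches 251 reads, the top of the scale.

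Jun, the founding partner that can also pair with itself, had lower pileups with LPS at several upstream regions. Of its 7 shared regions, 5 were lower with LPS in both genotypes, beside 11.7% of all shared regions. In both genotypes 0 were higher, beside 12.7%, and 1 was higher in KO alone. The region at -42.67 kb (chr4:95094616-95095097) had 89 and 82 reads in untreated WT, 38 and 36 with LPS, 75 and 85 in untreated KO and 35 and 35 with LPS. The treated values were less than those of every untreated library, and the log2 change was -1.03 (SE 0.22, adjusted p = 0.000132, limma) in WT and -1.01 (SE 0.22, adjusted p = 0.000165) in KO. The regions at -29.61, -31.93 and -47.92 kb had log2 changes of -0.79, -0.83 and -0.75 in WT and -1.08, -0.94 and -0.67 in KO, and the region at -1.13 kb of -0.48 and -0.43. Each of these 4 lost its call in 1 or both genotypes when 1 library was left out. The libraries were LPS-treated WT 1 at -29.61 kb (adjusted p = 0.0702, limma), LPS-treated KO 1 at -31.93 kb (0.0703), untreated WT 1, LPS-treated WT 2, untreated KO 2 and LPS-treated KO 1 at -47.92 kb (up to 0.115), and untreated WT 2, LPS-treated WT 1 and LPS-treated KO 2 at -1.13 kb (up to 0.205). The largest pileups were over the start site (chr4:95051984-95052833), with 524 and 512 reads in untreated WT, 382 and 418 with LPS, 414 and 480 in untreated KO and 406 and 300 with LPS. The Jun start site was lower after LPS in each genotype by counts, but the difference did not pass the test in WT (adjusted p = 0.0719, limma) or KO (adjusted p = 0.107).

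Gains at Jun were at the edges of the window. The region at +51.8 kb, nearest to Mysm1, was gained in both genotypes with 82 and 71 reads in WT and 66 and 51 in KO. The region at -49.83 kb was gained in WT with 90 and 68 reads, and 1 LPS-treated KO library listed it with 59. Regions at -36.97 kb and +43.85 kb, with 39 to 51 reads in untreated WT, were lost there.

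Junb, a Jun protein that is abundant in activated macrophages, kept high pileups at the gene, on a high local background. Over its start site (chr8:84978499-84979014) the 8 libraries had 412 and 414 reads in untreated WT, 458 and 427 with LPS, 317 and 383 in untreated KO and 407 and 306 with LPS. The change passed the test in WT (log2 change 0.25, SE 0.10, adjusted p = 0.0384, limma) but not without centring (adjusted p = 0.698), not with any 1 of the WT libraries left out (up to 0.207), and not in KO (adjusted p = 0.163). The region at +2.12 kb, just past the gene, rose from 268 and 286 reads to 390 and 317 in WT (log2 change 0.50, adjusted p = 0.000357, limma), and without centring this call was lost too (adjusted p = 0.134). A region at +3.79 kb was gained in WT with 214 and 179 reads, and its deposited enrichment was 2.69 and 2.39 over a local background of 79.02 and 74.26 reads.

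The Junb regions lost with LPS were lost in both genotypes. The region at +9.98 kb (chr8:84968608-84969009), nearest to Rnaseh2a, had 166 and 137 reads in untreated WT and 107 and 97 in untreated KO, and no LPS library listed it. The region at -11.27 kb, nearest to Hook2, had 121 and 142 reads in untreated WT and 93 and 122 in untreated KO. Local background at these places was 30.3 to 41.04 reads in untreated WT, against a flat genome-wide background of 5.53 reads, so more reads were needed there for a call.

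Jund, the Jun gene expressed in most resting cells, showed no change with LPS that passed the test at the gene itself. The region inside the gene at +1.12 kb (chr8:70698295-70699246) had 420 and 485 reads in untreated WT, 422 and 394 with LPS, 421 and 459 in untreated KO and 431 and 382 with LPS. The log2 change with LPS was 0.01 (SE 0.09, adjusted p = 0.973, limma) in WT and 0.04 (SE 0.09, adjusted p = 0.781) in KO. The region at +31.58 kb, nearest to Pde4c, was gained in both genotypes with 65 and 79 reads in WT and 61 and 57 in KO. A region at +23.2 kb was gained in WT with 49 and 45 reads, and 1 untreated KO library listed it with 45.

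Batf encodes a small partner without an activation domain that binds with Jun proteins and IRF factors. It had more gained regions in WT than any other member, 5 of 17, beside 10.1% of all regions. The region at -19.94 kb (chr12:85666505-85667029) was gained in both genotypes, with 133 and 130 reads in LPS-treated WT and 109 and 84 in LPS-treated KO. The region at +26.05 kb was gained in WT with 177 and 159 reads, and the KO libraries listed it before LPS with 46 and 45 reads and after it with 119 and 106. Smaller gains in WT were at -6.71, +1.42 and +31.43 kb, with 42 to 62 reads. In KO, the region at +43.34 kb was gained with 70 and 53 reads, and in WT it went from 26 reads in 1 untreated library to 112 and 89.

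Shared regions around Batf rose as well. At +24.08 kb (chr12:85710528-85711157) the pileup was 279 and 252 reads in untreated WT, 410 and 365 with LPS, 154 and 172 in untreated KO and 336 and 258 with LPS. The treated libraries were above the untreated ones in each genotype, with a log2 change of 0.70 (SE 0.12, adjusted p = 2.31e-06, limma) in WT and 1.01 (SE 0.12, adjusted p = 3.45e-10) in KO. At -16.45 kb (chr12:85670055-85670491) it rose from 136 and 129 reads to 221 and 190 in WT and from 51 and 85 to 147 and 119 in KO, a log2 change of 0.78 (adjusted p = 0.000212, limma) and 1.15 (adjusted p = 1.91e-07). Inside the gene, at +18.85 kb, it rose from 334 and 329 to 451 and 419 in WT and from 237 and 222 to 343 and 285 in KO (log2 change 0.54 and 0.60), but without centring the WT call was lost (adjusted p = 0.0747, limma). The deposited enrichment did not rise with these pileups. At +18.85 kb it went from 12.56 and 13.08 to 9.44 and 9.07 in WT and from 12.4 and 11.15 to 9.16 and 9.13 in KO, and at -16.45 kb from 14.83 and 12.92 to 10.89 and 10.16 in WT and from 7.47 and 10.09 to 9.11 and 8.35 in KO. The promoter of Batf was much less open, with 33 to 68 reads in the 7 libraries that listed it. The 1 shared region that fell in both genotypes, at -38.54 kb, was nearest to Jdp2, a repressor of the same family, and went from 128 and 165 reads to 86 and 88 in WT and from 87 and 98 to 45 and 42 in KO. Its WT call was lost without untreated library 2 or LPS-treated library 1 (adjusted p up to 0.218, limma).

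**Figure D4:**
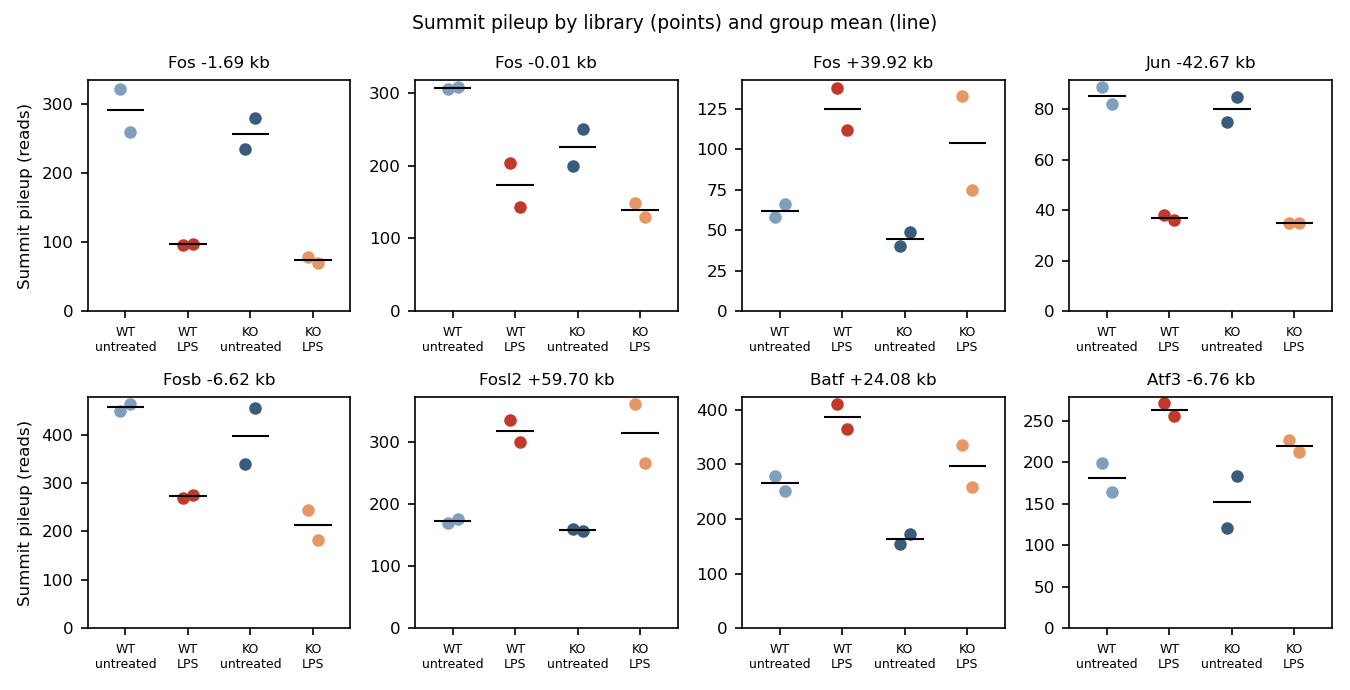
Summit pileup in reads by library (points) with the group mean (line) for 8 regions at Fos, Jun, Fosb, Fosl2, Batf and Atf3, each titled by its distance from the start site. The LPS libraries lie below the untreated ones of their genotype at Fos -1.69 and -0.01 kb, Jun -42.67 kb and Fosb -6.62 kb, and above them in the other 4 regions.

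Batf3, known for its part in dendritic cell development, had 0 regions gained with LPS in either genotype, beside 10.1% of all regions in WT and 8.03% in KO. Of its 8 shared regions, 3 were lower in both, beside 11.7% of all shared regions. The shared region at +12.93 kb rose in WT, from 110 and 144 reads to 158 and 174 (log2 change 0.55, adjusted p = 0.00677, limma), but not without centring (0.141) or without untreated WT library 1 or LPS-treated WT library 2 (up to 0.174). In KO it had 105 and 131 reads untreated and 122 and 118 with LPS (adjusted p = 0.4, limma). The region at -12.61 kb (chr1:191085484-191086211) had 238 and 265 reads in untreated WT, 154 and 163 with LPS, 198 and 214 in untreated KO and 144 and 124 with LPS, and its log2 change was -0.51 (adjusted p = 0.00245, limma) in WT and -0.47 (adjusted p = 0.00545) in KO. Without LPS-treated WT library 1 the WT value no longer passed (adjusted p = 0.0855, limma). The other two, at -25.18 kb and +21.09 kb, lost their WT calls without LPS-treated WT library 2 (and at -25.18 kb also without untreated WT library 1; adjusted p up to 0.0822 and 0.0984, limma), and at +21.09 kb the KO call was lost without untreated KO library 2 or LPS-treated KO library 1 (up to 0.235). The region at +24.57 kb, which is also within 50 kb of Atf3, was lost in both genotypes, having 144 and 137 reads in untreated WT and 110 and 117 in untreated KO. The promoter, with 53 to 84 reads, showed no change that passed the test in WT (adjusted p = 0.19, limma) or KO (adjusted p = 0.789). A region at -23.13 kb, with 62 and 75 reads, was lost in KO.

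Atf3, which is induced by stress and by Toll-like receptors and restrains inflammatory genes, had an open promoter in every library. The region over the promoter window (chr1:191183050-191183813) had 385 and 441 reads in untreated WT, 339 and 376 with LPS, 403 and 414 in untreated KO and 368 and 338 with LPS. The log2 change with LPS was -0.05 (SE 0.10, adjusted p = 0.732, limma) in WT and -0.06 (SE 0.10, adjusted p = 0.706) in KO. The upstream region at -6.76 kb (chr1:191189838-191190345) rose from 199 and 164 reads to 271 and 256 in WT and from 121 and 184 to 227 and 213 in KO. That change was 0.69 (SE 0.14, adjusted p = 6.93e-05, limma) and 0.71 (SE 0.14, adjusted p = 4.48e-05) on the log2 scale, with no overlap between treated and untreated libraries of a genotype. The most enriched Atf3 region, at -47.4 kb, fell from 562 and 545 reads to 377 and 355 in WT and from 444 and 502 to 359 and 341 in KO (log2 change -0.44 and -0.28, adjusted p = 0.000107 and 0.0146, limma). The KO call was lost without untreated KO library 2 or LPS-treated KO library 1 (up to 0.174). A region at -9.24 kb was gained in KO with 73 and 82 reads, and 1 LPS-treated WT library listed it with 114. The region at -2.88 kb, with 104 and 94 reads, was lost in WT.

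The genotypes shared most regions at the AP-1 genes, and more calls were lost than gained in KO. In untreated cells 2 regions were gained in KO (1.17%, beside 0.735% of all regions) and 8 were lost (4.68%, beside 6.22%). With LPS, 0 were gained (beside 0.711%) and 7 lost (4.09%, beside 6.94%). The KO lists were shorter, and when each list was limited to the same number of peaks there were 3 losses (beside 2.49% untreated and 2.67% with LPS over all regions) and 2 gains in each treatment (beside 2.27% and 2.26%). Both gains in untreated KO, at Fos +16.66 kb and Batf +26.05 kb, were also gained with LPS in WT. Their enrichment in untreated KO was low, at 3.06 and 4.21 for Fos and 3.87 and 3.47 for Batf.

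Across both treatments, 2 regions (1.17%, beside 0.861%) were called in all 4 WT libraries and in no KO library, and 0 in the reverse (beside 0.0678%). The first was at -15.95 kb from the Fosb start site (chr7:19325878-19326184), with 81 and 88 reads in untreated WT and 96 and 88 with LPS. The second was 40.33 kb below the Fosl1 span (chr19:5407186-5407495), nearest to Tsga10ip, with 75 and 54 reads in untreated WT and 61 and 57 with LPS. Neither region changed its calls with LPS. The other regions called in both WT libraries and neither KO library, in 1 treatment each, were at Jun +52.66 kb, Junb +41.39 kb, Jund +2.92, +20.75 and +23.2 kb, Batf3 -40.74 kb, Atf3 -2.88 kb, Fos +23.06 and +44.49 kb, Batf +31.43 kb and 15.44 kb below Fosl1.

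Among the 98 shared regions, limma on the centred pileup gave 4 higher (4.08%, beside 4.36%) and 2 lower (2.04%, beside 1.86%) in untreated KO than in untreated WT. With LPS it gave 4 higher (4.08%, beside 2.64%) and 0 lower (beside 0.921%). At an unadjusted p under 0.05 there were 18 of the 98 untreated, beside 20.1% of all shared regions, and 17 with LPS, beside 17.9%. Without centring the same comparisons gave 0 higher and 18 lower, and 0 higher and 24 lower, beside 0.669% and 21.4% of all shared regions untreated and 0.31% and 21.7% with LPS, and the median difference over all shared regions then stood at -0.332 and -0.345 (log2). The 10 calls fell on 8 regions, and 0 of the 10 held with each library left out in turn. The Jund region at -24.51 kb, nearest to Lsm4, had the smallest adjusted p (0.000238, limma, log2 difference 0.53), with 340 and 427 reads in untreated WT and 426 and 433 in untreated KO. These pileups overlap, the difference without centring was 0.17 (adjusted p = 0.413, limma), and the call was lost without untreated WT library 1 (adjusted p = 0.0562). The Batf region at -16.45 kb was lower in untreated KO (log2 difference -0.64, adjusted p = 0.0131, limma), with 51 and 85 reads against 136 and 129, and the call was lost without untreated WT library 1 or 2 or untreated KO library 1 (adjusted p up to 0.243).

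The difference between the genotypes in the response to LPS was tested directly as an interaction. It called 0 of the 98 AP-1 regions in either direction, beside 0.00646% higher and 0.00323% lower over all shared regions, and 1 of the 98 had an unadjusted p under 0.05 (limma), beside 7.75% of all shared regions. That region was at Jun +50.62 kb, nearest to Mysm1, with 233 and 181 reads in untreated WT, 213 and 161 with LPS, 84 and 132 in untreated KO and 142 and 147 with LPS (interaction 0.60, SE 0.23, adjusted p = 0.465, limma).

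The deposited enrichment and the pileup did not always move together at these genes. Ranked by enrichment within the shared set, 24 of the 98 regions were higher with LPS in WT in both libraries (24.5%, beside 28.7%) and 45 were lower (45.9%, beside 30.8%). In KO 21 were higher (21.4%, beside 27.8%) and 33 lower (33.7%, beside 29.6%). By the rank of the pileup in place of the enrichment, the WT counts became 41 higher and 34 lower, beside 31% and 35.8% of all shared regions, and the KO counts 30 higher and 31 lower, beside 29.6% and 34.2%. Judged by the values themselves, 6 regions in WT had lower enrichment and higher pileup with LPS (6.12%, beside 2.83%) and 2 the reverse, and in KO 5 (5.1%, beside 1.6%) and 1. The region over the Junb start site was among the 6 in WT, and the region over the Jun start site was the 1 in KO. The local background at the AP-1 regions, the divisor of the enrichment, rose from a median of 18.98 reads to 21.97 in WT and from 14.78 to 16.89 in KO with LPS, while over all shared regions it went from 13.06 to 12.94 and from 10.68 to 10.72. Its part in the ranks was not tested. The Batf region at +24.08 kb was an example, with an enrichment of 14.24 and 14.21 in untreated WT and 10.96 and 10.77 with LPS while its pileup rose.

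**Figure D5:**
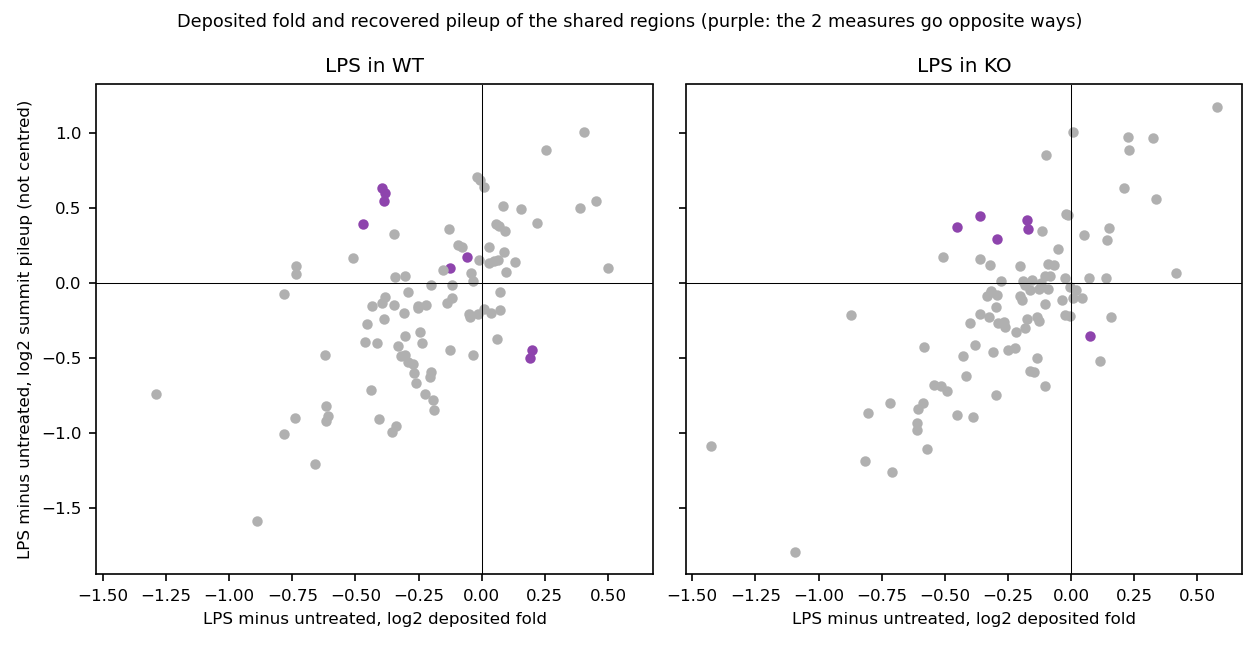
Change with LPS of the log2 deposited enrichment (x axis) and of the log2 summit pileup without centring (y axis) for the 98 shared regions, in WT (left) and KO (right). Purple points are regions where both treated libraries moved one way by enrichment and the other way by pileup. In WT there are 6 with lower enrichment and higher pileup, at Batf and Junb.

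Between genotypes the same ranks gave 40 regions higher in untreated KO (40.8%, beside 26.7%) and 11 lower (11.2%, beside 22.2%). With LPS 36 were higher in KO (36.7%, beside 26.2%) and 13 lower (13.3%, beside 21.8%). By the rank of the pileup, 26 were higher and 19 lower in untreated KO, beside 23.5% and 24.7% of all shared regions, and 20 higher and 19 lower in KO with LPS, beside 22.8% and 23.8%. In each treatment the local background at AP-1 regions was lower in KO than in WT, as given above, and its part was not tested here either.

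Other genes of the pathway had shares of changed regions close to those of the genome. Over all regions, 10.1% were gained and 6.02% lost with LPS in WT, and 8.03% and 5.56% in KO. The single genes named here were picked for their many gained or lost regions, so they do not stand for their lists. Among 20 related leucine zipper genes, 34 of 302 regions (11.3%) were gained and 14 (4.64%) lost with LPS in WT, and 25 (8.28%) and 16 (5.3%) in KO. Creb5, a CREB family member, had 8 gained regions in WT and 10 in KO of 45, and Jdp2, the neighbour of Batf, had 5 and 4 of 21. The windows of Jdp2 and Batf overlap. The regions gained in WT at -19.94, -6.71 and +1.42 kb from the Batf start site lie in both windows and are counted at both genes. Among 22 kinases and serum response regulators, 34 of 336 regions (10.1%) were gained and 17 (5.06%) lost in WT, and 30 (8.93%) and 21 (6.25%) in KO. Mapkapk2, a kinase downstream of p38, had 6 gained in WT and 7 in KO of 35, and Mef2c, a MADS box factor, had 0 gained and 5 lost in WT and 4 lost in KO of 13. Among 13 genes known as AP-1 targets, 14 of 168 regions (8.33%) were gained and 11 (6.55%) lost in WT, and 12 (7.14%) and 8 (4.76%) in KO. Ptgs2, which encodes the inducible cyclooxygenase, had 3 gained in WT and 2 in KO of 9.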

How the data were processed

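The authors deposited 1 peak list per library, called separately with no pooling. Per the submitters' processing notes, BWA 0.7.12 and MACS2 were used with build mm10; the filter on the lists is not given in the sources used here. Each deposited peak carried a fold enrichment, a ratio to local background made by the authors within 1 library, its -log10 p-value, and the distance in bp from its start to its summit. Peaks overlapping by 1 bp were merged, and a region counted as called in each library with a peak in it. Calls and the rank of the deposited fold, taken within the regions called in all 8 libraries, were compared by non-overlap, with no test. Described regions of each gene are the most steadily called one nearest to the span, up to 3 gained or lost ones per comparison, and the one of highest mean rank; shared regions described for their change were chosen after their values were seen. Groups follow titles and treatment fields, although the source names of LPS samples also read untreated. The members and gene lists were chosen with earlier results of these data known.

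The summit pileup was worked out from the deposited fold and -log10 p-value, taking MACS2's form (pileup + 1) / (background + 1) and a Poisson tail; the flat background came to 5.53 reads in each library, and lists began at pileups of 23 or 24. Read totals were not used here. The flat background was the same in WT and KO libraries, at 5.5345 reads. Median pileups in shared regions were nevertheless 124 to 149 reads in WT and 94 to 121 in KO, and they limit the precision. What lowered the KO pileups was not tested. The limma 3.58.1 fit (R 4.3.3) on log2 pileup over 30960 regions and all 4 groups was added after the data were seen, and includes only regions called in all 8 libraries. Its empirical Bayes step drew the variance of each region towards a trend over all of them. With 2 libraries a group, small p-values lean on that trend. Python 3.11.15, numpy 2.4.6 and scipy 1.17.1 did the rest. Both steps were tested on simulated data. Gene spans and promoters came from RefSeq. Alternatives were equal list lengths, a -log10 p of at least 20, a cover of 50%, windows of 20 and 100 kb, nearest genes only, other ranked values, no centring, a replicate block and leaving out each library.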

Additional observations from a re-analysis of the deposited data

Results flagged for a closer look

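In 6 of the 98 shared regions both LPS libraries moved one way in WT and the other way in KO by rank within the shared set. The difference was not tested by rank. How many of all shared regions did so was not counted, so this number cannot be judged as high or low. By rank of the deposited enrichment, the Fosl1 region at chr19:5448596-5449047 rose by 4.46 percentile points in WT and changed by -2.91 in KO, the one at chr19:5457086-5457785 by 10.3 and -8.86, and the one at chr19:5491150-5491736 by 1.3 and -0.63. The Fosl1 region at chr19:5490207-5490642 changed by -4.77 in WT and 3.24 in KO, and the Batf region at +24.08 kb by -14.9 and 2.41. By rank of the pileup, the Fosl2 region at +61.41 kb changed by 3.11 in WT and -1.34 in KO. The limma test of the difference itself on the pileup gave adjusted p-values of 0.842, 0.738, 0.872, 0.76, 0.67 and 0.909 for these regions in that order. At Batf +24.08 kb the pileup rose in both genotypes, with log2 changes of 0.70 and 1.01.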

How the results depend on the processing

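Calls covered here rest on 2 libraries a group, and an unlisted region is not closed DNA. With a library left out, gained and lost regions numbered 18 to 23 and 11 to 13 with LPS in WT, 11 to 15 and 6 to 12 with LPS in KO, 2 to 6 and 12 to 13 for KO against WT untreated, and 0 to 3 and 10 to 18 with LPS; higher and lower ranks numbered 31 to 35 and 48 to 54, 24 to 35 and 40 to 50, 50 to 57 and 18 to 23, and 47 to 56 and 18 to 28 in the same order. These counts rise because fewer libraries must agree. The limma counts, higher and lower, were 12 to 17 and 13 to 17 with LPS in WT, 14 to 16 and 18 to 21 with LPS in KO, 0 to 2 and 0 to 4 for KO against WT untreated, and 0 to 3 and 0 to 0 with LPS.

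With the window of 20 kb, gained and lost regions numbered 10 and 5 with LPS in WT and 5 gained in KO, and 5 and 3 were lost in KO against WT untreated and with LPS. Ranks of the 47 shared regions of that window, higher and lower, were 13 and 19, 12 and 14, 24 and 4, and 23 and 5. The limma counts were 9 and 12 in WT, 8 and 12 in KO and 1 lower in untreated KO. The window of 100 kb held 282 regions. Of these, 14 were lost in WT, 17 gained and 17 lost in KO, 5 gained in untreated KO, and 2 gained and 17 lost in KO with LPS. Where the nearest coding gene had to be a member, 86 regions were left. Of these, 5 were lost in WT, 5 gained and 1 lost in KO, and 4 and 3 lost in KO against WT. The windows and this rule leave the shares over all regions as given above. With equal numbers of peaks, 3 were lost in untreated KO, and 2 gained and 3 lost in KO with LPS. A -log10 p of at least 20 left 149 regions. Of these, 12 were lost with LPS in KO, 0 gained in untreated KO, and 1 gained and 11 lost in KO with LPS. With a cover of 50%, 8 of 171 were lost with LPS in KO, and 1 gained in KO against WT in each treatment. For the -log10 p and cover settings the shares over all regions were not counted.

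Ranking by -log10 p gave 17 lower in untreated KO and 23 higher in KO with LPS. Ranking by pileup gave 41 higher with LPS in WT, 26 higher and 19 lower in untreated KO and 20 higher in KO with LPS. Without centring, limma gave 9 higher with LPS in each genotype, 0 higher and 18 lower in untreated KO, and 0 higher and 24 lower in KO with LPS. Replicate numbers showed no pairing of the libraries. The deviations of replicate 1 from its group mean, over the shared regions, had correlations between groups of -0.0856 to 0.0309. With the replicate block the limma counts were 20 and 23 with LPS in WT, 18 and 23 in KO, 4 and 2 in untreated KO and 3 and 0 in KO with LPS. Single regions did turn over between measures: by pileup in place of enrichment, 8 regions moved the opposite way with LPS in WT and 6 in KO, Batf +24.08 kb and Fos -5.04 kb among those in WT.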
